A study of Sus scrofa with 10 samples.

Results

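Thrombospondin-1, periostin and CCDC80 are secreted proteins of the extracellular matrix, read here on the 9 probe sets that the array's annotation gives to their genes THBS1, POSTN and CCDC80 by 1 gene symbol each, out of 24123 probe sets in all. THBS1 has 5 of these probe sets, POSTN has 2 and CCDC80 has 2. The 3 genes were chosen with their difference between the fractions already known, on their most changed or brightest probe set, so every difference between fractions given for them is a description and is not a test.

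The cells were fetal fibroblasts from Danish Landrace/Yorkshire x Duroc pig embryos at day 24, grown from fetal tissue without the head in medium with serum on gelatin. They were sorted on magnetic columns by SSEA-1, a fucosylated carbohydrate of the cell surface that marks several kinds of embryonic and stem cells, into an SSEA1+ and an SSEA1- fraction. The labels give no genetic change and no treatment beside the sort, and the study calls the fibroblasts a cell line. RNA of 5 SSEA1+ and 5 SSEA1- fractions was measured, 1 Affymetrix porcine array per fraction, and both fractions carry replicate numbers 1 to 5. Arrays of the same number are called a pair below. The pairing is not certain, since both arrays of replicate 4 and SSEA1- replicate 5 were more like an array of another number. The labels do not say whether the 5 biological replicates were separate cultures or animals, so p-values measure the spread between these samples only, and they do not give the purity of the sort.

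Matricellular proteins sit in the matrix but act mainly as signals, by binding cell-surface receptors, proteases, growth factors and collagen. Thrombospondin-1 is a large multimeric glycoprotein that binds the receptors CD36 and CD47, restrains blood vessel growth and activates latent TGF-beta. Periostin is a fasciclin-domain protein made by fibroblasts and bone-forming cells, which binds integrins and helps collagen to be cross-linked, and TGF-beta is a known inducer of it. CCDC80 is a secreted, heparin-binding matrix protein linked to fat cell differentiation, and it shares a domain with SRPX and SRPX2.

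Signals are log2 values, so a difference of 1 is a 2-fold difference. A probe set was taken as above background over 0.352, the level below which 95% of 23 control probe sets lie whose targets no pig RNA should hold. All 5 THBS1 probe sets, both CCDC80 probe sets and the POSTN probe set Ssc.7266.1.A1_at lay above it on all 10 arrays, and the other POSTN probe set, Ssc.7969.1.A1_at, lay below it on all 10. A level cannot be set against that of another probe set, so genes and probe sets are compared here only by their differences between arrays. Precision is limited by there being 5 arrays in a fraction.

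The arrays differed little as wholes, with 69.3% to 72.5% of probe sets above background and correlations of 0.987 to 0.996 between arrays. Of 14 listed fibroblast markers 11 were measured, and all 11 lay above background on every array. So did 5409 of all 6765 genes, so lying above background does not by itself show a cell type, here or in the lists below. The summed linear signal of the fibroblast markers ran from 5036 to 5619 in SSEA1+ and from 5329 to 5833 in SSEA1-. Such sums grow with the number of genes, genes at background add to them, and the brightest genes carry them, so they are not compared between lists. Endothelial markers summed to 8.73 to 9.71 and 9.11 to 9.66 over 7 measured genes. Of these 3 were above background on every array, and CDH5 and TEK on none. Macrophage markers summed to 6.63 to 7.26 and 6.51 to 6.65, with 1 of 5 above background on every array and CD163 on none. Blood markers summed to 22.1 to 27.3 and 24.3 to 29.1, mostly from HBB, with 2 of 4 above background on every array and PTPRC on none. Epithelial markers summed to 39.4 to 98.7 and 40.0 to 111, skeletal and heart muscle markers to 164 to 271 and 110 to 236, and smooth muscle and pericyte markers to 2722 to 3371 and 2518 to 3284. Neural markers summed to 13.4 to 17.8 and 15.2 to 17.8, mesothelial markers to 5.05 to 8.49 and 5.04 to 6.56, and chondrocyte markers to 9.32 to 11.2 and 9.56 to 12.1. Above background on every array were 5 of 8 epithelial, 3 of 6 muscle and 5 of 6 smooth muscle and pericyte markers. So were 5 of 5 neural, 2 of 3 mesothelial and 4 of 5 chondrocyte markers. No gene of these lists outside the fibroblast list passed limma at an adjusted p under 0.05, while 4 epithelial, 1 muscle and 1 mesothelial marker had an unadjusted p under 0.05, as had 23.8% of all genes. The epithelial 4 were EPCAM at 0.25, CDH1 at 0.18, KRT19 at 0.40 and CLDN4 at 0.24, all higher in SSEA1+. EPCAM lay above background on 5 of the 10 arrays and CDH1 on 8. The other epithelial markers KRT8, KRT18, ESRP1 and CLDN7 read -0.05, -0.09, -0.04 and 0.06. KRT19 is also the mesothelial marker with such a p. With the replicate block KRT19 and the muscle gene TNNT1 passed in limma, both higher in SSEA1+, where 14.3% of all genes passed. The part of other cell types in the values below was not tested.

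The poly-A spike-in controls, added to the RNA before labelling, moved with the fractions. Their level relative to the hybridisation controls, which are added after labelling, ran from -3.45 to -2.66 on the log2 scale in SSEA1+ and from -4.32 to -3.80 in SSEA1-, with no overlap and a mean difference of 0.82. The hybridisation controls differed too, running from 6.75 to 7.17 in SSEA1+ and from 6.21 to 6.60 in SSEA1-, and the poly-A level before they were subtracted was 1.24 higher in SSEA1+. The 3' to 5' difference of the actin controls ran from 1.06 to 1.24 in SSEA1+ and from 1.12 to 1.35 in SSEA1-, and that of GAPDH from 0.80 to 1.01 and from 0.89 to 1.02. The part of the spike-in level in each difference was not tested apart from the covariate values given beside it.

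The 3 genes did not move alike. THBS1 carried a 2.59-fold higher signal in SSEA1+ on 1 probe set, while its 4 other probe sets, among them the brightest pair, differed by less than the spread within a fraction. POSTN was 1.50-fold lower in SSEA1+ on its measurable probe set, by nearly the same amount in each of the 5 replicate pairs. CCDC80 was 1.94-fold lower on its brighter probe set, while the other differed by less than the spread within a fraction. In bulk RNA of a sorted fraction, fewer cells that express a gene and less of its RNA per cell cannot be told apart.

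**Figure D1:**
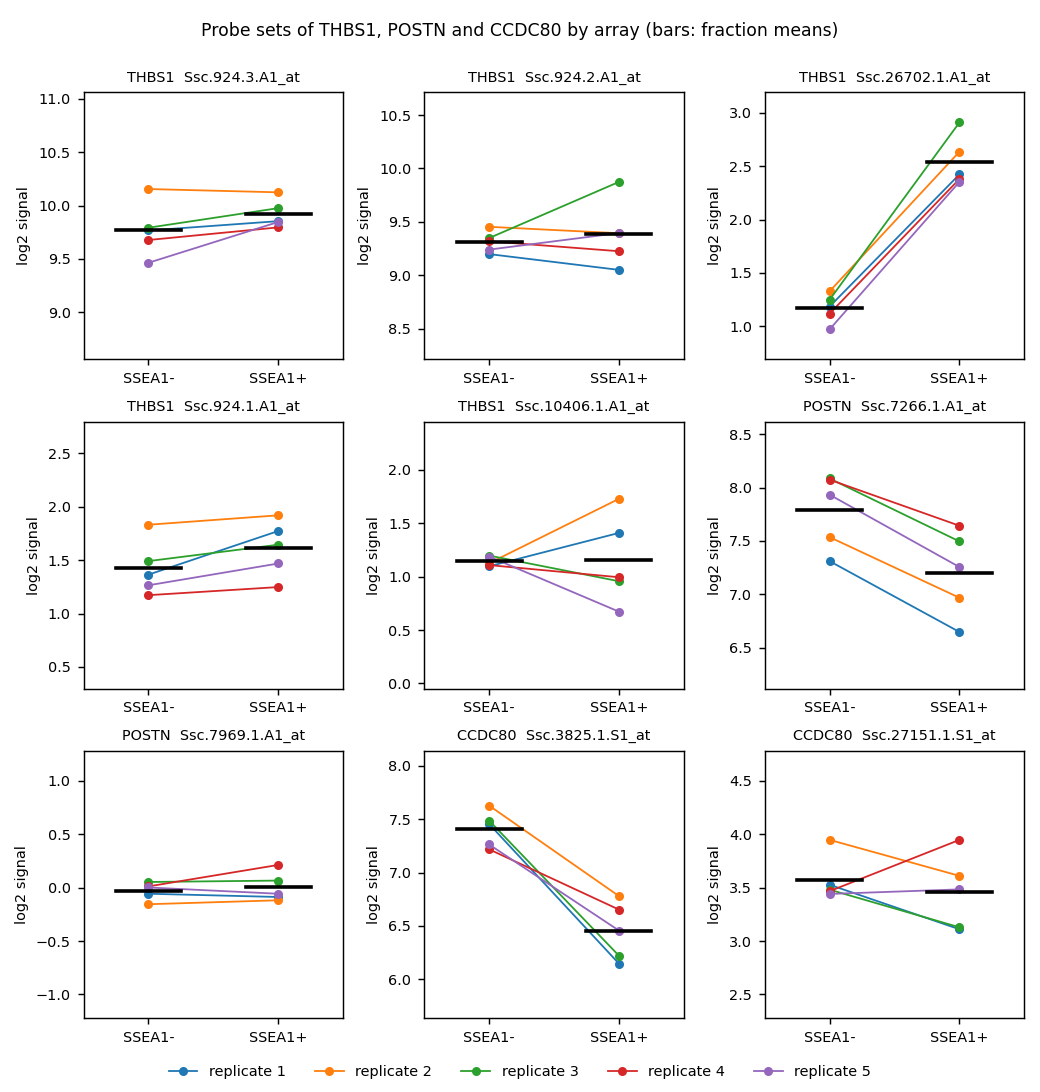
Log2 signal of the 9 probe sets in each fraction, with a line for each replicate number and a black bar for each fraction mean; every panel spans the same range of 2.5 log2 units. The lines of THBS1 Ssc.26702.1.A1_at all climb by between 1.24 and 1.66, those of POSTN Ssc.7266.1.A1_at all descend nearly in parallel, and those of CCDC80 Ssc.3825.1.S1_at all descend by between 0.56 and 1.31.

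The THBS1 probe set Ssc.26702.1.A1_at read 2.42, 2.64, 2.91, 2.38 and 2.35 in SSEA1+ replicates 1 to 5. In SSEA1- it read 1.18, 1.33, 1.25, 1.12 and 0.97. The lowest SSEA1+ array lay 1.03 above the highest SSEA1- array, and SSEA1+ replicate 3, the array with the highest poly-A level, read highest. The means were 2.54 ± 0.23 and 1.17 ± 0.14 (SD, n = 5 each), a difference of 1.37 ± 0.11 (SE). It ranked 9 among the positive differences of the 23935 probe sets that are not array controls.

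The brightest THBS1 probe set, Ssc.924.3.A1_at, read 9.85, 10.12, 9.98, 9.80 and 9.85 in SSEA1+. In SSEA1- it read 9.77, 10.15, 9.79, 9.68 and 9.46. The fractions overlapped, replicate 2 was the highest array of each fraction, and SSEA1- replicate 5 was the lowest of all. The difference was 0.15 ± 0.11 (SE), with 4 of 5 pairs higher in SSEA1+.

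The next brightest, Ssc.924.2.A1_at, read 9.05, 9.39, 9.87, 9.22 and 9.39 in SSEA1+. In SSEA1- it read 9.20, 9.45, 9.35, 9.32 and 9.24. SSEA1+ held both the lowest and the highest array, replicates 1 and 3, and 2 of 5 pairs were higher in SSEA1+, for a difference of 0.08 ± 0.13 (SE). Of the other THBS1 probe sets, which were dim like Ssc.26702.1.A1_at, Ssc.924.1.A1_at differed by 0.19 ± 0.14 (SE) and was higher in SSEA1+ in 5 of 5 pairs, by 0.076 to 0.41. Ssc.10406.1.A1_at differed by 0.01 ± 0.16 (SE), and its SSEA1+ arrays spread from 0.67 to 1.73 while its SSEA1- arrays stayed between 1.10 and 1.20.

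After the fraction means were removed, the values of Ssc.26702.1.A1_at over the 10 arrays correlated with those of Ssc.924.2.A1_at at r = 0.81, of Ssc.924.3.A1_at at 0.68, of Ssc.924.1.A1_at at 0.56 and of Ssc.10406.1.A1_at at 0.14. These are descriptions over arrays that share their scaling. The part of a transcript that each probe set reads was not analysed here.

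The POSTN probe set Ssc.7266.1.A1_at read 6.65, 6.97, 7.50, 7.64 and 7.26 in SSEA1+. In SSEA1- it read 7.31, 7.54, 8.08, 8.07 and 7.93. Replicate 1 was the lowest array of each fraction and replicate 2 the second lowest, and the fractions overlapped, since SSEA1+ replicates 3 and 4 read above SSEA1- replicate 1. The means were 7.20 ± 0.40 and 7.79 ± 0.35 (SD, n = 5 each), a difference of -0.59 ± 0.19 (SE).

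Within the replicate numbers the POSTN difference was steady. It was -0.66, -0.57, -0.59, -0.43 and -0.68 in pairs 1 to 5, so SSEA1+ was lower in 5 of 5 pairs, with an SD of 0.098 between pairs. The means of the pairs spanned 0.88, more than the difference between the fractions and the widest span of the 9 probe sets. The spread within a fraction, an SD of 0.38, exceeded that of 96.9% of the probe sets above background. Blocking on the replicate number gave the difference an SE of 0.07.

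The CCDC80 probe set Ssc.3825.1.S1_at read 6.15, 6.78, 6.22, 6.65 and 6.46 in SSEA1+. In SSEA1- it read 7.46, 7.63, 7.49, 7.22 and 7.26. Every SSEA1+ array lay below every SSEA1- array, with a gap of 0.44. The means were 6.45 ± 0.27 and 7.41 ± 0.17 (SD, n = 5 each), a difference of -0.96 ± 0.12 (SE), which ranked 34 among the most negative of the non-control probe sets. The pair differences were less even than those of POSTN: -1.31, -0.85, -1.27, -0.56 and -0.81 in pairs 1 to 5, with an SD of 0.32.

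The dimmer CCDC80 probe set, Ssc.27151.1.S1_at, read 3.11, 3.61, 3.13, 3.95 and 3.48 in SSEA1+. In SSEA1- it read 3.53, 3.95, 3.48, 3.47 and 3.44. The fractions overlapped and 3 of 5 pairs were lower in SSEA1+, for a difference of -0.12 ± 0.15 (SE). After the fraction means were removed the pair correlated at r = 0.85 over the 10 arrays, a description over arrays with shared scaling.

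The contrast was fitted over all probe sets in limma with a Benjamini-Hochberg threshold of 0.05. It called 2 of the 9 probe sets, THBS1 Ssc.26702.1.A1_at higher and CCDC80 Ssc.3825.1.S1_at lower, where 6.2% of all probe sets were called (2.72% higher and 3.48% lower); since the genes were chosen on this contrast, nothing is read from that count. The same 2 were the probe sets whose fractions did not overlap, against 6.5% of all (3.2% higher and 3.3% lower). With the replicate number as a block POSTN Ssc.7266.1.A1_at was called as well, 3 of 9 against 11.7% of all probe sets (5.17% higher and 6.57% lower). Read on the brightest probe set alone, 1 of the 3 genes was called, CCDC80, and its fractions did not overlap, where 7.39% of 6765 genes were called (3.21% higher and 4.18% lower) and 8.53% did not overlap. With the block POSTN and CCDC80 were called, against 14.3% of genes (5.65% higher and 8.62% lower). POSTN Ssc.7266.1.A1_at was also called with the replicate number as a random block (SE 0.16), where 2561 of all probe sets were called. Without either block POSTN was called in 1 of 15 fits that left out an array or a pair, that without SSEA1+ replicate 4, at -0.70. The 6.2% stand for 1495 probe sets, and that number was 850 without SSEA1+ replicate 1, 853 without SSEA1+ replicate 5, and 836 both without SSEA1- replicate 3 and without SSEA1- replicate 5.

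With the poly-A level of each array as a covariate, all 3 called or block-called probe sets kept their direction and none was called. Of all 24123 probe sets 12 were called with the covariate, and 4 with the replicate block beside it, so nothing is read from the lost calls. THBS1 Ssc.26702.1.A1_at read 1.02 ± 0.18, and 0.96 ± 0.22 with the replicate block beside the covariate (SE). CCDC80 Ssc.3825.1.S1_at read -0.63 ± 0.22 and -0.45 ± 0.31, and POSTN Ssc.7266.1.A1_at -0.69 ± 0.37 and -0.46 ± 0.22. Other probe sets of these genes did not all keep their direction. CCDC80 Ssc.27151.1.S1_at went from -0.12 to 0.39 ± 0.24 and 0.57 ± 0.33, and THBS1 Ssc.924.2.A1_at from 0.08 to -0.22 ± 0.22 and -0.56 ± 0.24 (SE). No SSEA1+ array had a poly-A level as low as any SSEA1- array, so these values are extrapolated by the model. Over the 10 arrays, THBS1 Ssc.26702.1.A1_at correlated with the poly-A level at r = 0.90, or 0.63 after the fraction means were removed. For CCDC80 Ssc.3825.1.S1_at the values were -0.89 and -0.51, for CCDC80 Ssc.27151.1.S1_at -0.50 and -0.61, and for POSTN Ssc.7266.1.A1_at -0.52 and 0.09.

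**Figure D2:**
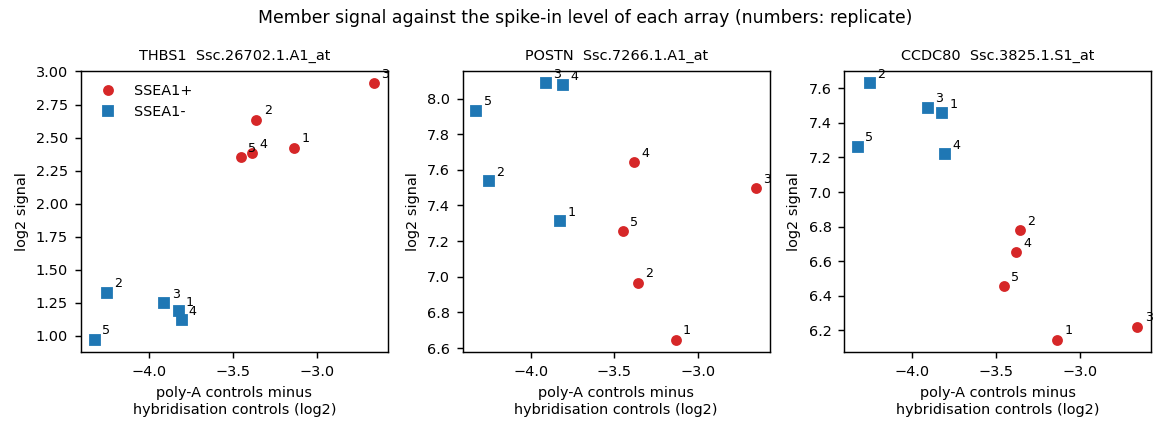
Log2 signal of the THBS1, POSTN and CCDC80 probe sets with the largest differences (vertical axis) against the level of the poly-A controls relative to the hybridisation controls on the same array (horizontal axis, log2), with replicate numbers beside the points. The fractions part on the horizontal axis without overlap, from -4.32 to -3.80 for SSEA1- and from -3.45 to -2.66 for SSEA1+, and POSTN is lowest in replicate 1 and next lowest in replicate 2 of both.

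**Figure D3:**
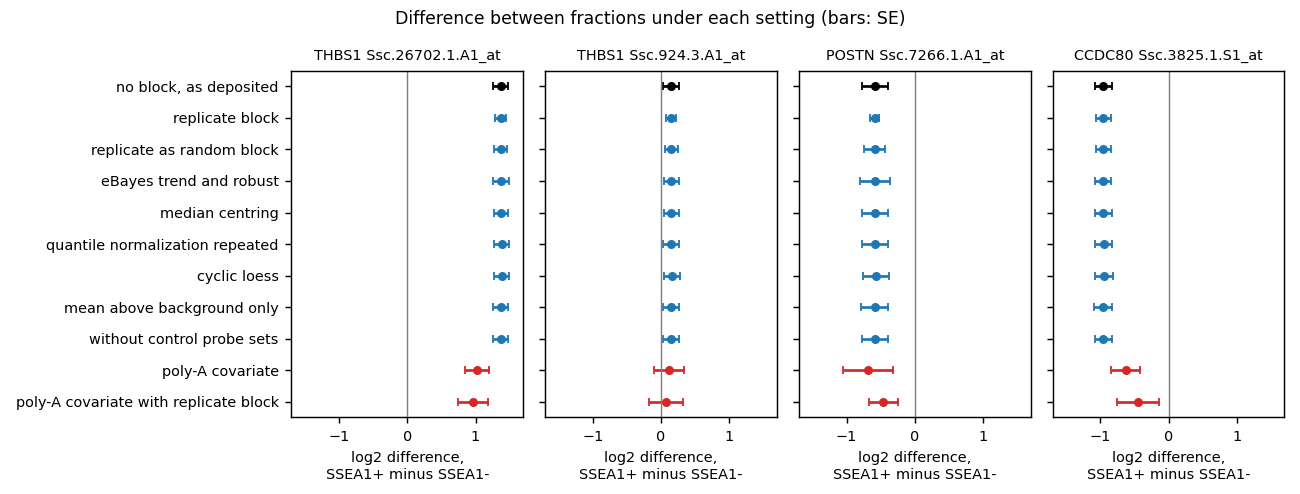
Difference between fractions on the log2 scale, SSEA1+ minus SSEA1- (horizontal axis), for 4 probe sets under each setting of the fit (vertical axis), with bars for the SE. The scalings and filters leave the points in place, and the poly-A covariate brings THBS1 Ssc.26702.1.A1_at from 1.37 to 1.02 and CCDC80 Ssc.3825.1.S1_at from -0.96 to -0.63.

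Of 28 other matricellular genes listed, 13 were measured, each read on its brightest probe set, and none passed in limma, with an unadjusted p under 0.05 for 3; over all 6765 genes 7.39% passed and 23.8% had such a p. The median difference of the 13 was -0.06, against -0.01 over all genes. SRPX2, the gene that shares a domain with CCDC80, read -0.45 ± 0.15 (SE, adjusted p = 0.0947 in limma). It was lower in SSEA1+ in 5 of 5 pairs and passed with the replicate block (adjusted p = 0.0151), as did LGALS3, a galectin that binds surface glycans, at 0.23 ± 0.08 (SE, adjusted p = 0.0426 with the block against 0.140 without). The share of all genes that passed with the block was 14.3%.

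SRPX2 read 1.91, 2.34, 2.50, 2.14 and 2.06 in SSEA1+ and 2.57, 2.39, 3.14, 2.77 and 2.35 in SSEA1-. The fractions overlapped, as SSEA1+ replicate 3 read above SSEA1- replicates 2 and 5. CCN1, a matricellular integrin ligand, read -0.22 ± 0.08 and the large hexamer-forming glycoprotein TNC read -0.23 ± 0.22 (SE), and neither passed with or without the block. The closest paralog of THBS1, THBS2, read 0.02 ± 0.18, and THBS3 read -0.22 ± 0.13 (SE). SPARC, a collagen-binding matricellular protein, read -0.06 ± 0.07 (SE).

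Among receptors and partners, 17 of 24 listed genes were measured, none passed in limma, 3 reached an unadjusted p under 0.05, against 7.39% and 23.8% of all genes, and the median difference was 0.00. The thrombospondin receptor CD47 read 0.00 ± 0.09 on its brightest probe set, the integrin subunits ITGAV, ITGB3 and ITGB5, which bind periostin, read 0.07 ± 0.09, 0.08 ± 0.14 and 0.15 ± 0.11, and BMP1, a procollagen protease that works with periostin on collagen cross-linking, read -0.26 ± 0.11 (SE). ITGA5, the fibronectin receptor subunit, read 0.24 ± 0.17 (SE), and its other, dimmer probe set read 0.54 ± 0.08 (SE) and passed (adjusted p = 0.00200 in limma). With the replicate block, where 14.3% of all genes passed, SDC1, a heparan sulfate proteoglycan, passed at 0.27 (adjusted p = 0.0251 against 0.257 without it). The tyrosine kinase JAK2 passed with the block at -0.31 (adjusted p = 0.0463 against 0.146), and also without SSEA1- replicate 4, at -0.41. With the mean over all probe sets of a gene CD47, which has 2 other probe sets, and ITGA5 passed, at 0.25 and 0.39. The values of the other CD47 probe sets and the share of all genes that passed with that mean are not given here.

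TGF-beta ligands, receptors and effectors did not pass either. Of 25 genes listed 12 were measured, none passed by limma, with the block or without it, 1 had an unadjusted p under 0.05, and the median difference was 0.09. Of all genes 7.39% passed, 14.3% did with the block and 23.8% had an unadjusted p under 0.05. The ligands TGFB1, TGFB2 and TGFB3 read -0.14 ± 0.12, 0.17 ± 0.17 and 0.26 ± 0.17 (SE). PMEPA1, a TGF-beta target that dampens the pathway, read 0.30 ± 0.17, and TAGLN, an actin-binding protein of contractile cells, read 0.19 ± 0.11 (SE). The 4 other PMEPA1 probe sets were higher in SSEA1+ too, by 0.18 to 0.51, and none passed. The largest of these, 0.51 ± 0.15 (SE), had an adjusted p of 0.0687 in limma. The collagen cross-linking enzyme LOX read 0.15 ± 0.11 (SE).

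Targets of YAP/TEAD and SRF, transcription factors that respond to cell spreading and tension, gave 1 call among 17 measured of 24 listed, where 7.39% of all genes were called. An unadjusted p under 0.05 in limma was reached by 7 of the 17, rises and falls among them, against 23.8% of all genes. MYL9, a myosin light chain, rose by 0.52 ± 0.13 (SE, adjusted p = 0.0338 in limma), without overlap of the fractions and with 5 of 5 pairs higher in SSEA1+. That call ended without SSEA1+ replicate 1, 2, 3 or 5 and without SSEA1- replicate 1 or 5, with values from 0.41 to 0.56 in those fits. It also ended without pair 1, 2, 3 or 5, at 0.47, 0.53, 0.54 and 0.45, and so held in 5 of 15 fits that left out an array or a pair. With the poly-A covariate MYL9 read 0.20 ± 0.23 (SE) and did not pass, where 12 of all 24123 probe sets passed. With the replicate block, where 14.3% of all genes passed, 3 of the 17 rose and 1 fell: MYL9, the actin crosslinker FLNA at 0.34 (adjusted p = 0.0334 against 0.118 without it) and the membrane protein CRIM1 at 0.27 (0.0377 against 0.197) rose, and the coagulation factor gene F3 fell, at -0.44 (0.0155 against 0.0721). Without the block F3 passed when SSEA1+ replicate 2 or SSEA1- replicate 5 was left out, at -0.51 and -0.57, and FLNA when SSEA1- replicate 2 was left out, at 0.42. The stretch-responsive gene ANKRD1 read 0.29 ± 0.18 (SE) and did not pass with or without the block. The median difference of the 17 was 0.16, against -0.01 over all genes.

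**Figure D4:**
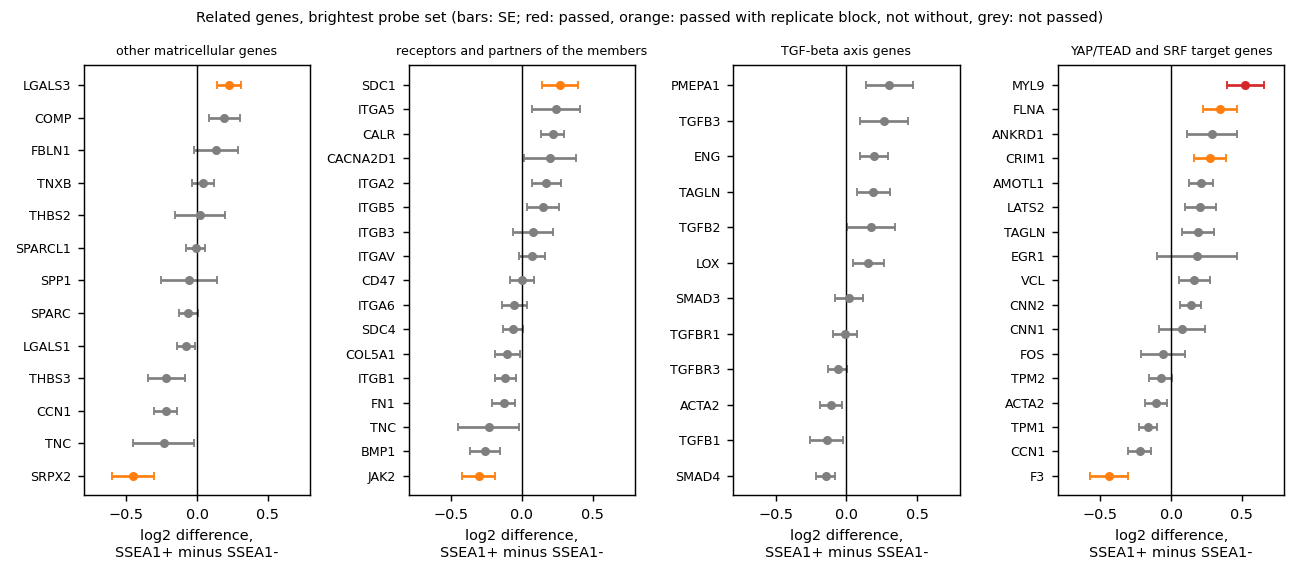
Log2 difference, SSEA1+ minus SSEA1-, of each measured gene in 4 lists of related genes, with bars for the SE. MYL9 is the single red point, at 0.52, and the orange points, genes that passed with the replicate block but not without it on all arrays, lie between -0.45 for SRPX2 and 0.34 for FLNA.

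The fibroblast markers gave 1 rise among their 11 measured genes, where 7.39% of all genes were called (3.21% higher and 4.18% lower). With the replicate block they gave 2 rises and 1 fall, where 14.3% of all genes were called. COL1A2, which encodes a type I collagen chain, rose by 1.19 ± 0.13 (SE, adjusted p = 0.000434 in limma) on its brightest probe set. Its other probe set, dim with means of 0.54 in SSEA1+ and 0.46 in SSEA1-, read 0.085 ± 0.105 (SE, adjusted p = 0.736 in limma). The call of the brightest probe set ended with the poly-A covariate, at 1.01 ± 0.25 (SE), where 12 of all 24123 probe sets were called. FAP, a surface protease of activated fibroblasts, read -0.50 ± 0.15 and THY1, a surface glycoprotein of mesenchymal cells, 0.34 ± 0.10 (SE), and both passed with the replicate block and not without it (adjusted p = 0.00433 and 0.0146, against 0.0665 and 0.0564 without it). Of the dimmer THY1 probe sets 1 rose by 0.89 ± 0.09 (SE, adjusted p = 0.000329 in limma) and the other read -0.0048 ± 0.11 (SE, adjusted p = 0.990 in limma).

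Among 5690 other genes above background, each on its brightest probe set, the profile over the 10 arrays was set against that of each gene's brightest probe set. For THBS1 Ssc.924.3.A1_at the 5 most similar were COX7A1, a subunit of cytochrome c oxidase, the glycolytic enzyme HK1, TMEM158, the focal adhesion protein VCL and TMEM151B, with r from 0.93 to 0.97 over the 10 arrays. After the fraction means were removed these correlations ran from 0.92 to 0.96, and the genes differed between fractions by 0.10 to 0.16, close to the 0.15 of THBS1 itself. VCL belongs to the YAP/TEAD and SRF list and read 10.00 in SSEA1+ replicate 2 and 9.89 in SSEA1- replicate 2, the highest array of each fraction, as for THBS1.

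For POSTN the 5 were PAN2, a subunit of an mRNA deadenylase, PTN, WDR75, the glycosylation enzyme ALG5 and the spliceosomal protein SNRPA1, with r from 0.92 to 0.97, and from 0.87 to 0.96 after the fraction means were removed. PTN, a secreted heparin-binding growth factor, read 6.48, 6.75, 7.12, 7.31 and 6.99 in SSEA1+ and 7.29, 7.36, 7.71, 7.85 and 7.50 in SSEA1-. Like POSTN it was lowest in replicate 1 of each fraction, and its difference of -0.61 was close to that of POSTN.

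For CCDC80 Ssc.3825.1.S1_at they were TIAM2, an exchange factor of the GTPase RAC1, the golgin GCC2, the lysosomal proteins PSAP and LAMP1, and the ubiquitin ligase scaffold CUL1, with r from 0.95 to 0.97. Here the fraction difference carried more of the likeness, since without the fraction means r ran from 0.76 to 0.89. The brightest probe sets of the 3 genes were less alike. After the fraction means were removed THBS1 and CCDC80 correlated at 0.54, THBS1 and POSTN at -0.35, and POSTN and CCDC80 at -0.02. The values for THBS1 depended on the probe set: Ssc.26702.1.A1_at correlated with CCDC80 at 0.083 and with POSTN at 0.006. All these correlations are over 10 arrays with shared scaling, were picked from many genes, and are descriptions.

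**Figure D5:**
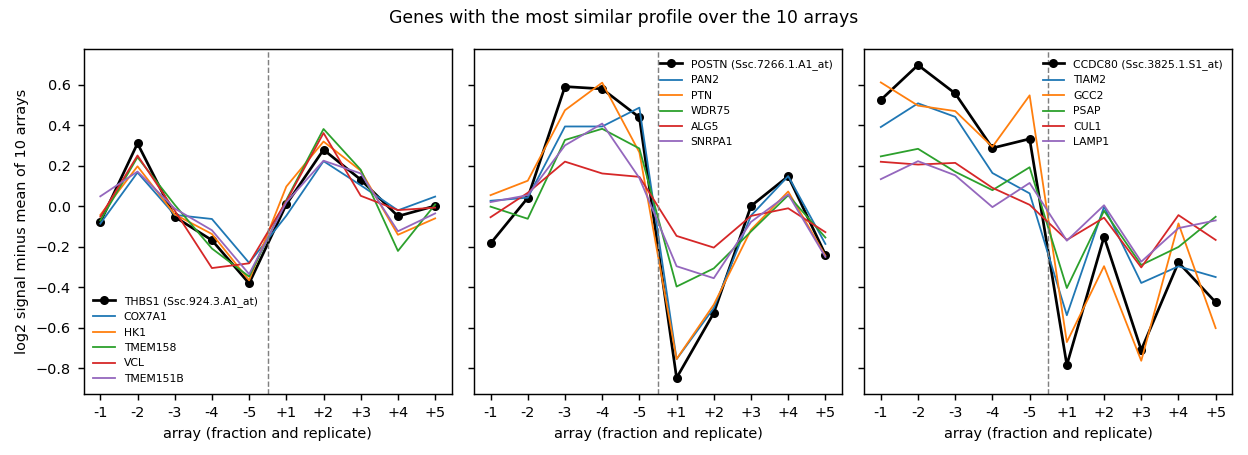
Log2 signal minus its mean over the 10 arrays (vertical axis) for the brightest probe set of THBS1, POSTN and CCDC80 in black and the 5 genes most like each in colour, by array (horizontal axis: fraction sign and replicate number; lines only guide the eye). The THBS1 profile varies more between replicates than between fractions, with replicate 2 highest in both, whereas all CCDC80 values in SSEA1+ lie below those in SSEA1-.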

How the data were processed

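Per the submitters' processing notes the authors made the deposited values with RMA, whose version and background step the sources used here do not state. The deposited values are on the log2 scale: the base is not stated, and the signal of the hybridisation controls rose by 0.936 to 1.06 per unit of log2 concentration, taking the supplier's concentrations as known. Gene names came from the annotation of the platform (1 symbol for 10099 of 24123), CCN1 through its older symbol CYR61, and each of 6765 genes was read on its probe set with the highest mean. Fractions were compared with limma 3.58.1 in R 4.3.3 (lmFit, eBayes) on all probe sets, 188 controls included, with Benjamini-Hochberg adjustment at 0.05; the procedure was tested on simulated data. The genes, the lists and the alternatives were chosen with earlier results of these data known. Named list genes were those that passed and, up to 4 per list, the largest differences above background. Named besides, after their values were seen, were THBS2, THBS3, SPARC, CD47, the integrins ITGAV, ITGB3 and ITGB5, TGFB1, TGFB2, LOX and CRIM1. The same holds for EPCAM, KRT8, ESRP1 and CLDN7. Arrays with the same replicate number were taken as a pair because, once the fraction means were removed, the arrays of each number correlated positively. The values were 0.214, 0.580, 0.356, 0.119 and 0.247 in replicates 1 to 5. Both arrays of replicate 4 and SSEA1- replicate 5 correlated better with another number, so the pairing is not certain. The block is an alternative and not part of the main test. Poly-A level is the mean of 36 control probe sets minus that of 27 hybridisation controls.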

Additional observations from a re-analysis of the deposited data

Results flagged for a closer look

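In 4 of 114 sets of 5 arrays checked, an array lay far from the other 4 of its fraction, where chance gives about 1 in 20. CCDC80 Ssc.27151.1.S1_at read 3.95 in SSEA1- replicate 2 against 3.44 to 3.53 in the others. F3 read 7.19 in SSEA1- replicate 5 against 7.82 to 7.97, and 7.59 in SSEA1+ replicate 2 against 7.15 to 7.27. ANKRD1 read 7.75 in SSEA1- replicate 1 against 6.89 to 7.13.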

How the results depend on the processing

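Repeated quantile normalization, cyclic loess, median centring, trend and robust settings, the filter on level and leaving out the controls kept the direction of THBS1 Ssc.26702.1.A1_at, POSTN Ssc.7266.1.A1_at and CCDC80 Ssc.3825.1.S1_at and the calls of the first and last, and POSTN was called under none of them. Leaving out 1 array or pair gave 1.28 to 1.42, -0.71 to -0.45 and -1.06 to -0.87 for them. The filter on level removed POSTN Ssc.7969.1.A1_at, which has no value there. When the poly-A covariate was added, first alone and then beside the replicate block, THBS1 Ssc.26702.1.A1_at read 1.02 and 0.96, CCDC80 Ssc.3825.1.S1_at -0.63 and -0.45, CCDC80 Ssc.27151.1.S1_at 0.39 and 0.57, and THBS1 Ssc.924.2.A1_at -0.22 and -0.56; POSTN Ssc.7969.1.A1_at read 0.19 with both. Over all probe sets 1495 calls became 2832 with the replicate block, 2561 with it as a random effect, 12 with the covariate and 4 with both, and 384 to 1834 in leave-outs; the cause was not tested. Calls among other matricellular genes were 2 with the block and 1 with the random block, SRPX2; among receptors and partners 2 with the block, 2 with the mean over probe sets and 0 to 1 in leave-outs; and among YAP/TEAD and SRF targets 4 with the block, 2 with the random block, 2 with trend and robust settings, 0 with the covariate with or without the block, and 0 to 2 in leave-outs. The replicate block changed no other call of the 9 probe sets. Differences of dim probe sets are the least certain.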
